A study of Rattus norvegicus with 12 samples.

Results

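Elastic fibre genes were followed through the change of rat cardiac fibroblasts into immortalized Sall4 and Gata4 cells and in those cells after culture in 2 media. The 10 genes were taken from the gene count table by name: elastin (Eln), the fibrillins Fbn1 and Fbn2, the fibulins Fbln1, Fbln2 and Fbln5, the microfibril-associated glycoprotein genes Mfap4 and Mfap5, and the lysyl oxidases Lox and Loxl1. All 10 were found among the 32545 genes of the table. Of the 14399 genes with enough counts to be tested, 9 were members, and Mfap4 had no count in any library.

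An elastic fibre has an elastin core laid onto a scaffold of microfibrils, which are bundles of fibrillin with associated glycoproteins. Fibulins help to bring soluble elastin, tropoelastin, to the microfibrils, and lysyl oxidases cross-link it into a polymer that stretches and recoils. Fibroblasts and smooth muscle cells make these fibres in arteries, heart valves and the stroma of the heart, with most elastin made around birth and in early postnatal growth. Microfibrils also hold latent TGF-beta in the matrix.

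The 12 libraries came from cultured cells of rat heart, with 3 biological replicates in each of 4 groups. RCF are untreated, wild-type cardiac fibroblasts that served as controls. GS are immortalized cells obtained from such fibroblasts with viral Sall4 and Gata4, kept undifferentiated and not treated. GS_diff1 are GS cells given CMM medium, labelled as cardiomyocyte differentiation, and GS_diff2 are GS cells given CMM medium plus EGM2 solution, labelled as cardiomyocyte/endothelial differentiation. The labels give no strain, animal age, virus promoter, number of clones or length of culture, and no GS cultures matched to the media in time or density. What a medium did and what time or growth state did cannot be told apart. The protocol label names the 2 viral factors for every sample, RCF included, while the design text calls RCF untreated. Sall4 had 0 counts in each RCF library and a mean of 246 CPM in GS, with 225 in GS_diff1 and 69.6 in GS_diff2. Gata4 was present in RCF, at a mean of 206 CPM, with 595 in GS, 495 in GS_diff1 and 285 in GS_diff2. CPM are normalised read counts, scaled for library size and composition.

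Libraries held 16255682 to 23117864 counts. Of 9 fibroblast markers, 9 reached a mean of 1 CPM in RCF, with 8 in GS and 7 in each medium, of which Tcf21 had 0 counts in every GS_diff2 library. Pdgfra (463 and 97.4 CPM), Lum (92.5 and 11.2) and Thy1 (207 and 151) were higher on average in GS_diff2 than in RCF. Col1a1 (18100 and 28300 CPM), Col1a2 (1380 and 3090), Col3a1 (3220 and 5340), Ddr2 (104 and 259) and Dcn (0.419 and 32.8) were lower. The 9 markers summed to 35800 to 38900 CPM in RCF, with 38000 to 41100 in GS, 45400 to 46800 in GS_diff1 and 23400 to 23800 in GS_diff2. Endothelial markers (7 matched) summed to 13.6 to 17.2 CPM in RCF, with 15.1 to 17.4 in GS, 23.9 to 28.6 in GS_diff1 and 17.8 to 19.3 in GS_diff2. Tek made up most of each sum, with means of 13, 12.2, 16.1 and 13.6 CPM in that order. In the same order, Erg had means of 0, 1.52, 6.07 and 0.322 CPM, and Vwf of 0.892, 1.37, 1.55 and 3.65. Tie1 means were 0.649 to 1.78 CPM, those of Cdh5 and Kdr stayed below 1 CPM, and Emcn was at 0 in all 12 libraries. Smooth muscle markers (7 matched) summed to 718 to 737 CPM in RCF, with 413 to 436 in GS, 2100 to 2150 in GS_diff1 and 141 to 152 in GS_diff2. Cardiomyocyte markers (7 matched) summed to 15.6 to 17.1 CPM in RCF and 3.86 to 4.22 in GS. Their sums were 14.7 to 16.5 CPM in GS_diff1 and 36.3 to 39 in GS_diff2. Tnnt2 was the largest part of each sum (15.1, 1.96, 7.67 and 34.1 CPM in that order). Pln was highest in GS_diff1 (4.84 CPM), and means of Myh6 and Myh7 stayed below 1 CPM in every group. In bulk RNA, fewer cells of a type and less RNA per cell cannot be told apart.

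In GS cells, elastin, fibrillin-2, fibulin-1, fibulin-5 and Mfap5 rose by at least 2-fold over the parental fibroblasts, while fibrillin-1 and Loxl1 fell. Elastin, fibrillin-2 and fibulin-5 were lower again in GS_diff1 and GS_diff2 than in GS. Fbln2, Mfap5 and Loxl1 differed from GS in opposite directions in these groups. Lox rose at each of these comparisons. A gene is called where edgeR's quasi-likelihood test gave it an adjusted p (Benjamini-Hochberg, over all tested genes) under 0.05. The spread behind each adjusted p is that between libraries of a group. Since the number of clones is not given, it may not cover differences between clones.

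Of the 9 tested members, 7 were called higher and 2 lower in GS than in RCF, where 71.3% of all tested genes were called, 35% higher and 36.3% lower. At least 2-fold changes were called for 5 members, all higher, against 25.9% of all tested genes. The libraries of GS and RCF did not overlap for any of the 9, against 74.2% of all tested genes.

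In GS_diff1 against GS, 3 members were higher and 6 lower (64.3% of all tested genes were called, 32% higher and 32.3% lower). By at least 2-fold, 3 were called, all lower (18.2% of all tested genes), and all 9 had libraries that did not overlap (67%). In GS_diff2 against GS, 4 were higher and 5 lower (67% called, 33.3% higher and 33.7% lower), with the 5 lower ones at least 2-fold (21.5%) and no overlap for all 9 (70.3%). GS_diff2 against GS_diff1 gave 3 higher, 5 lower and 1 not called (63.7% called, 32.1% higher and 31.5% lower), with 6 changed at least 2-fold (19%) and 8 without overlap (67.8%).

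Against RCF, 7 members were higher and 2 lower in GS_diff1 (75.4% called, 38% higher and 37.4% lower), 6 of them at least 2-fold (32.6%) and all 9 without overlap (77.8%). In GS_diff2 against RCF, 5 were higher and 4 lower (72.5% called, 37.1% higher and 35.4% lower), 6 at least 2-fold (29.2%) and 8 without overlap (76.4%). Since most genes in the table were called in each comparison, the number of members called is near the background, and no more is read from it. The median size of change of the members was 1.45 on the log2 scale in GS against RCF, where that of all tested genes was 0.519. It was 0.48 against 0.442 in GS_diff1 and 1.31 against 0.475 in GS_diff2, each compared with GS. The members were chosen with earlier results of these data known, so these medians carry no test of the set. GS_diff1 and GS_diff2 share their GS controls, so these comparisons are not independent.

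**Figure D1:**
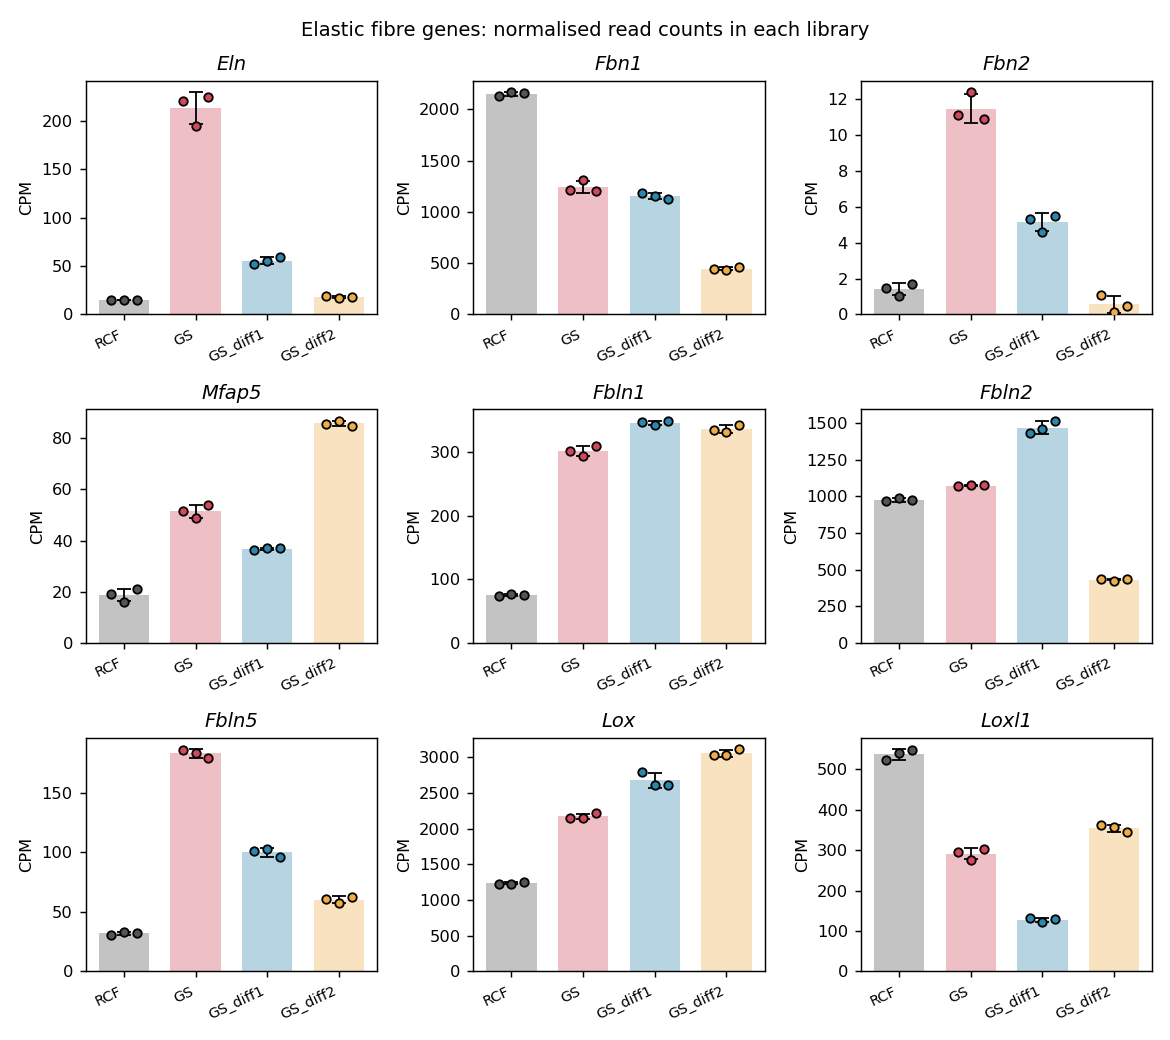
Normalised read counts (CPM, linear axes from 0) of the 9 detected elastic fibre genes in RCF, GS, GS_diff1 and GS_diff2. Points are libraries, bars are means and whiskers are SD (n = 3). Eln, Fbn2 and Fbln5 peak in GS, Fbn1 and Loxl1 are highest in RCF, and Lox and Mfap5 are highest in GS_diff2.

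Elastin is the elastic core protein. Eln (ENSRNOG00000001469, Rnor_6.0 chromosome 12, 24978483 to 25021863, plus strand) stood at 15.3, 15.2 and 14.8 CPM in the RCF libraries and at 221, 195 and 225 CPM in the GS libraries. It then stood at 52.2, 54.8 and 59.6 CPM in GS_diff1 and at 19.3, 17.3 and 18.1 CPM in GS_diff2. No group overlapped another, and GS was above the rest. The rise from RCF to GS was 14.1-fold (log2 3.82 ± 0.0652 SE, adjusted p = 3.72e-29), larger in size than that of 94.1% of tested genes. Elastin then fell 3.84-fold in GS_diff1 (log2 -1.94 ± 0.057, adjusted p = 8.03e-23) and 11.7-fold in GS_diff2 (log2 -3.55 ± 0.064, adjusted p = 2.61e-28). GS_diff2 kept a level 1.205-fold above RCF (log2 0.27 ± 0.0747, adjusted p = 0.00202), whereas GS_diff1 was 3.67-fold above it (log2 1.88 ± 0.0673, adjusted p = 4.69e-21). Smooth muscle cells also make elastin. Acta2 and Tagln make up most of the summed smooth muscle markers, and both were lower on average in GS than in RCF (88.4 and 198 CPM for Acta2, 314 and 516 for Tagln). Myh11 (1.86 and 4.53 CPM) and Des (0.51 and 1.03) were lower on average in GS as well. Cnn1, Lmod1 and Myocd were higher on average in GS than in RCF. Their means were 6.35 and 1.52 CPM for Cnn1, 11.4 and 6.07 for Lmod1, and 3.73 and 0.0422 for Myocd. The part of smooth muscle cells in the Eln levels was not tested.

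**Figure D2:**
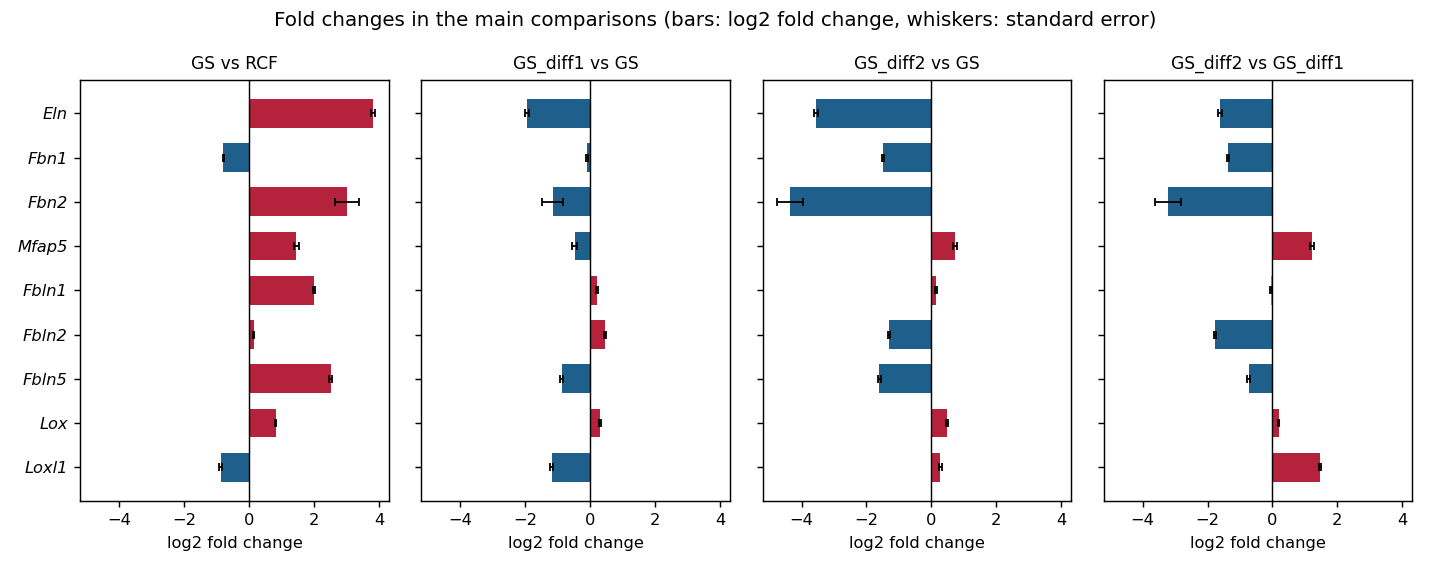
Log2 fold changes of the 9 tested members in the 4 main comparisons, with standard errors as whiskers. Red bars are called higher, blue bars called lower, and grey not called. Eln and Fbn2 have the longest bars in GS against RCF (3.82 and 3.02) and in GS_diff2 against GS (-3.55 and -4.37).

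The fibrillins build the microfibril scaffold, fibrillin-1 throughout life and fibrillin-2 mainly in development. Fbn1 (ENSRNOG00000007302, chromosome 3, 117569697 to 117766120, minus strand) stood at 2128, 2163 and 2153 CPM in RCF and at 1210, 1306 and 1205 CPM in GS. It was at 1182, 1153 and 1121 CPM in GS_diff1 and at 439, 434 and 461 CPM in GS_diff2. RCF was highest and GS_diff2 lowest, with no overlap between any pair of groups. The fall was 1.73-fold from RCF to GS (log2 -0.79 ± 0.0299, adjusted p = 9.43e-20) and 2.79-fold from GS to GS_diff2 (log2 -1.48 ± 0.0307, adjusted p = 5.18e-26). GS_diff1 was only 1.077-fold below GS (log2 -0.11 ± 0.0298, adjusted p = 0.00261). That call was lost when libraries were scaled by their totals alone (log2 -0.05, adjusted p = 0.188) and without GS replicate 2 (log2 -0.06, adjusted p = 0.0611).

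Fbn2 (ENSRNOG00000043219, chromosome 18, 53068495 to 53181503, minus strand) was the scarcest detected member. It had 35, 20 and 36 counts in the RCF libraries, 242, 214 and 169 in GS, 112, 91 and 95 in GS_diff1 and 21, 3 and 9 in GS_diff2. On the CPM scale its means were 1.4 ± 0.345 (SD, n = 3) in RCF and 11.5 ± 0.809 in GS, then 5.14 ± 0.486 in GS_diff1 and 0.564 ± 0.486 in GS_diff2. GS was above every other group without overlap, and the RCF and GS_diff2 libraries overlapped. Fbn2 was 8.11-fold higher in GS than in RCF (log2 3.02 ± 0.36, adjusted p = 1.19e-06) and 2.23-fold lower in GS_diff1 than in GS (log2 -1.16 ± 0.326, adjusted p = 0.00551). It was 20.6-fold lower in GS_diff2 than in GS (log2 -4.37 ± 0.403, adjusted p = 5.83e-08), and log2 -5.28 without GS_diff2 replicate 1. Against GS_diff1 it was lower by log2 -3.21 ± 0.402 (adjusted p = 2.62e-06), and by log2 -4.12 without the same library. Against RCF, GS_diff2 was lower by log2 -1.35 ± 0.425 (adjusted p = 0.00964), and by log2 -2.26 without it. These folds rest on few counts in GS_diff2.

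Compared per kilobase of gene length, Fbn2 remained a small fraction of Fbn1. There were 0.0828 ± 0.0206% as many Fbn2 as Fbn1 reads per kilobase in RCF, with 1.17 ± 0.0289% in GS, 0.566 ± 0.0592% in GS_diff1 and 0.161 ± 0.141% in GS_diff2 (SD, n = 3). A ratio within a library is free of the library's scaling. The pairs of genes compared in this way were chosen after their values had been seen. The stretch ahead of the Fbn2 start site is shown because Fbn2 had the largest fold among the members. It is RefSeq sequence of the GRCr8 build (chr18:53901993-53902242, minus strand), 250 bases long and 70% G and C, where the median over 33469 promoter windows of this length was 51.2%. None of the motifs searched matched in it, so it carries no capitals.

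Fbn2: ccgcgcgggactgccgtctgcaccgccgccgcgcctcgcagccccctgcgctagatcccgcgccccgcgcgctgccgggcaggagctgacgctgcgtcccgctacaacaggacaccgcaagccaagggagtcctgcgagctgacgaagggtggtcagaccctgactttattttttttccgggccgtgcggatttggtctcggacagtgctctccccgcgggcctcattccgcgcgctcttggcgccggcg

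Motifs were searched on both strands in the 250 bases ahead of the start site. They were the GATA-type words AGATAA (in 10.3% of all windows) and TGATAA (7.97%), the GC box GGGCGG (30.5%), the AP-1 word TGANTCA (6.34%), the TATA box TATAAA (12.9%), the E-box CANNTG (65.5%) and the CArG box (1.5%). Windows were found for 6 members. No GATA-type, AP-1, TATA or CArG match lay in these 6 windows, which says only that those letters are not there.

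Mfap5 encodes a glycoprotein that binds fibrillin and carries a cell-binding site. Mfap5 (ENSRNOG00000015505, chromosome 4, 155313671 to 155336228, plus strand) stood at 19.1, 16.2 and 21 CPM in RCF and at 51.6, 48.9 and 53.8 CPM in GS. It was at 36.3, 37.1 and 37.2 CPM in GS_diff1 and at 85.5, 86.9 and 85 CPM in GS_diff2. The 4 groups did not overlap, with RCF lowest and GS_diff2 highest. Mfap5 was 2.74-fold higher in GS than in RCF (log2 1.45 ± 0.0712, adjusted p = 1.87e-17). It was 1.395-fold lower in GS_diff1 than in GS (log2 -0.48 ± 0.0674, adjusted p = 3.2e-07) but 1.67-fold higher in GS_diff2 (log2 0.74 ± 0.0645, adjusted p = 2.16e-11). In GS_diff2, Mfap5 exceeded RCF 4.57-fold (log2 2.19 ± 0.0698, adjusted p = 2.58e-22).

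Mfap4, a microfibril protein gene abundant in the arterial wall, was listed at 0 counts in all 12 libraries (ENSRNOG00000002382, chromosome 10, 47765432 to 47768483, plus strand). A count of 0 allows up to 3 counts, or 0.127 to 0.193 CPM in these libraries, as far as counting error goes. Mapk7, a broadly expressed kinase gene that overlaps Mfap4 on the other strand, was also at 0 in every library; it was singled out after its values had been seen. The part of alignment or counting in the Mfap4 value was not tested, so the 0 is given as listed.

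Fibulins are linker proteins of the matrix, and fibulin-5 binds tropoelastin and the cell surface. Fbln5 (ENSRNOG00000050539, chromosome 6, 125644804 to 125723944, minus strand) stood at 31, 33.1 and 32 CPM in RCF and at 186, 184 and 179 CPM in GS. It was at 101, 103 and 96 CPM in GS_diff1 and at 61.1, 57.2 and 62.8 CPM in GS_diff2. As for elastin, the order was GS, GS_diff1, GS_diff2 and RCF, each apart from the next. The rise to GS was 5.72-fold (log2 2.52 ± 0.0485, adjusted p = 7.85e-28). The falls from GS were 1.83-fold in GS_diff1 (log2 -0.87 ± 0.0441, adjusted p = 6.01e-17) and 3.04-fold in GS_diff2 (log2 -1.60 ± 0.0457, adjusted p = 2.67e-23), where the level stayed 1.88-fold above RCF (log2 0.91 ± 0.05, adjusted p = 2.48e-16).

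Fibulin-1 is found in elastic fibres, basement membranes and blood. Fbln1 (ENSRNOG00000014137, chromosome 7, 126096793 to 126176468, plus strand) stood at 73.4, 76.2 and 76 CPM in RCF and at 301, 294 and 309 CPM in GS. It was at 346, 343 and 349 CPM in GS_diff1 and at 335, 331 and 343 CPM in GS_diff2. RCF was low and the other 3 groups were close together, with the libraries of both media overlapping. The rise to GS was 4.01-fold (log2 2.00 ± 0.0337, adjusted p = 2.49e-29). Small further rises of 1.148-fold in GS_diff1 (adjusted p = 1.91e-06) and 1.116-fold in GS_diff2 (adjusted p = 5.42e-05) passed the test. The difference between both media did not (log2 -0.04 ± 0.031, adjusted p = 0.245).

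Fibulin-2 binds fibrillin and other matrix proteins. Fbln2 (ENSRNOG00000007338, chromosome 4, 122835436 to 122895121, plus strand) stood at 968, 991 and 972 CPM in RCF and at 1067, 1074 and 1077 CPM in GS. It was at 1430, 1458 and 1516 CPM in GS_diff1 and at 434, 426 and 434 CPM in GS_diff2. GS_diff1 was highest and GS_diff2 lowest, and no groups overlapped. GS was 1.098-fold above RCF (log2 0.13 ± 0.0256, adjusted p = 2.82e-05), which did not hold under scaling by library totals alone (log2 0.04, adjusted p = 0.214). Fbln2 then rose 1.37-fold in GS_diff1 (log2 0.45 ± 0.0256, adjusted p = 9.34e-16) and fell 2.49-fold in GS_diff2 (log2 -1.31 ± 0.0262, adjusted p = 2.99e-27). Between the media the difference was 3.4-fold (log2 -1.77 ± 0.0264, adjusted p = 2.8e-30).

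The balance between fibulin RNA levels shifted with these changes. Per kilobase, the Fbln1 level was 10.3 ± 0.157% of that of Fbln2 in RCF, with 37.6 ± 0.891% in GS, 31.5 ± 0.797% in GS_diff1 and 104 ± 1.28% in GS_diff2. Both levels were thus close in GS_diff2, where Fbln2 was 2.49-fold lower than in GS and Fbln1 1.116-fold higher. For Fbln5 the share of the Fbln2 level was 5.69 ± 0.126% in RCF, against 29.6 ± 0.7% in GS, 11.8 ± 0.717% in GS_diff1 and 24.3 ± 0.895% in GS_diff2. The RefSeq windows of these genes differed in the words they hold. The Fbln2 window held 3 GC boxes, which began 59, 81 and 128 bases before the start site, and 1 E-box. The Fbln5 window held 1 GC box and 4 E-boxes. For both genes the start used is not the outer edge of the gene in RefSeq, so the windows may hold transcribed sequence and are not printed. The Fbn1 window, of the same kind, held none of the motifs.

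Lysyl oxidase, encoded by Lox, oxidizes lysines of tropoelastin and collagen, which starts the cross-links. Lox (ENSRNOG00000014426, chromosome 18, 47500330 to 47577819, minus strand) stood at 1231, 1223 and 1257 CPM in RCF and at 2153, 2156 and 2217 CPM in GS. It was at 2798, 2613 and 2614 CPM in GS_diff1 and at 3034, 3026 and 3115 CPM in GS_diff2. The groups rose in that order without overlap. The steps were 1.76-fold from RCF to GS (log2 0.81 ± 0.0257, adjusted p = 2.57e-22), 1.23-fold from GS to GS_diff1 (log2 0.30 ± 0.0255, adjusted p = 1.49e-11) and 1.143-fold from GS_diff1 to GS_diff2 (log2 0.19 ± 0.0254, adjusted p = 9.98e-08). The Lox gene overlaps Zfp474 on the other strand, which had a mean of only 11.2 counts. Lox was highest in GS_diff2, where Eln had fallen close to its RCF level. The ratio of Eln to Lox per kilobase was 1.64 ± 0.054% in RCF and 13.1 ± 0.902% in GS, then 2.79 ± 0.279% in GS_diff1 and 0.798 ± 0.047% in GS_diff2.

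Loxl1 is a related oxidase that binds elastin and fibulin-5. Loxl1 (ENSRNOG00000008680, chromosome 8, 63067300 to 63092009, minus strand) stood at 523, 541 and 548 CPM in RCF and at 295, 277 and 302 CPM in GS. It was at 132, 122 and 129 CPM in GS_diff1 and at 361, 357 and 344 CPM in GS_diff2. RCF was highest, GS_diff1 lowest, and no groups overlapped. Loxl1 fell 1.845-fold from RCF to GS (log2 -0.88 ± 0.0351, adjusted p = 9.56e-20) and a further 2.29-fold in GS_diff1 (log2 -1.19 ± 0.0368, adjusted p = 2.64e-22). In GS_diff2 it was 1.22-fold above GS (log2 0.28 ± 0.0352, adjusted p = 3.35e-08) and 2.78-fold above GS_diff1 (log2 1.48 ± 0.0367, adjusted p = 1e-24).

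Lox and Loxl1 moved in opposite directions in GS against RCF and in GS_diff1 against GS, and both were higher in GS_diff2 than in GS and than in GS_diff1. Per kilobase, the Lox level was 1.34 ± 0.028 times that of Loxl1 in RCF and 4.35 ± 0.158 times in GS, then 12.2 ± 0.361 times in GS_diff1 and 5.02 ± 0.206 times in GS_diff2. Loxl1 and Mfap5 were the members that fell in GS_diff1 and rose in GS_diff2 against GS, and the stretches ahead of their start sites are shown side by side for that reason. Both are 250 bases of RefSeq sequence of the GRCr8 build, Loxl1 at chr8:67612225-67612474 (minus strand, 60.4% G and C) and Mfap5 at chr4:157399669-157399918 (plus strand, 51.6%). Capitals mark the only match to the motifs searched in either, an E-box of Mfap5 that begins 73 bases before the start site.

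Loxl1: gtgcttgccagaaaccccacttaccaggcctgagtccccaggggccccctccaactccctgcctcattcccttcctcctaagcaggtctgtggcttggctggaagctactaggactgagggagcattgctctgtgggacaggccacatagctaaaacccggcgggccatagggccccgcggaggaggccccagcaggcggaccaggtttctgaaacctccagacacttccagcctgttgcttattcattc
Mfap5: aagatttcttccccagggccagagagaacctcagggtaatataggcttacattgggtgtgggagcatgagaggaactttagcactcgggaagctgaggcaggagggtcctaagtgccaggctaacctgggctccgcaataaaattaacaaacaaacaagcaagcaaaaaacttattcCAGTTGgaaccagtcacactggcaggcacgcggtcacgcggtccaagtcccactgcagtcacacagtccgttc

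**Figure D3:**
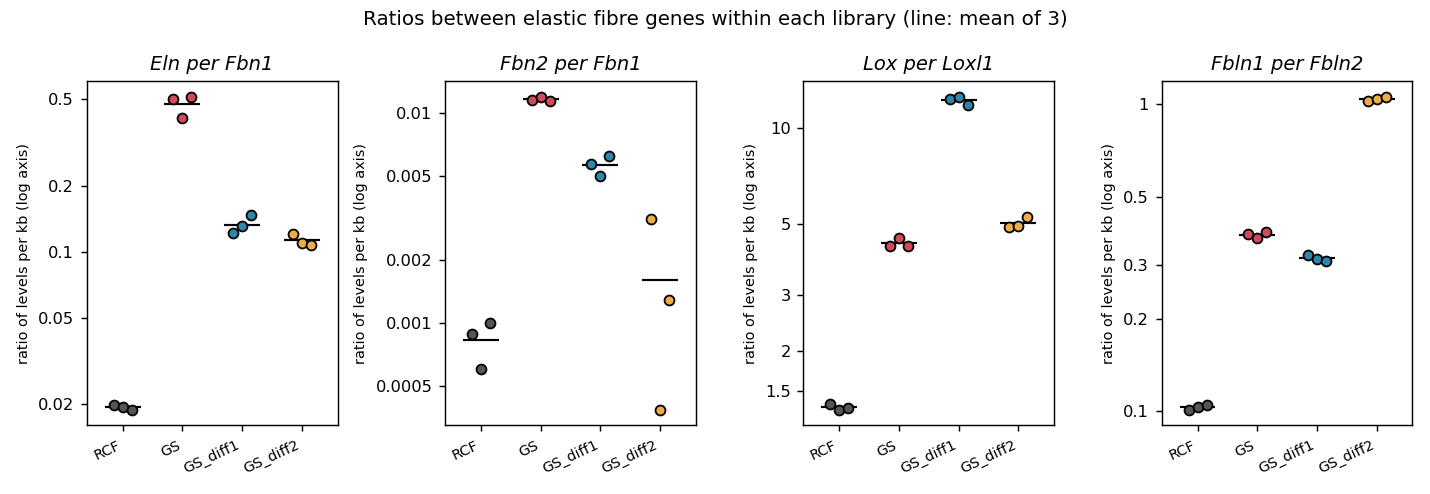
Ratios of levels per kilobase between pairs of elastic fibre genes within each library, on log axes. Points are libraries and lines are means (n = 3). The Eln to Fbn1 ratio is highest in GS (0.41 to 0.514), the Lox to Loxl1 ratio in GS_diff1 (11.8 to 12.5), and the Fbln1 to Fbln2 ratio in GS_diff2 (1.03 to 1.06).

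The RNA level of the core gene Eln also changed against that of the scaffold gene Fbn1. These are RNA levels only, and the make-up of fibres was not tested. Eln per Fbn1, per kilobase, was 0.0194 ± 0.000453 in RCF and 0.476 ± 0.0566 in GS, 24.5 times as high. It was 0.133 ± 0.0126 in GS_diff1 and 0.113 ± 0.00699 in GS_diff2, where elastin and fibrillin-1 had both fallen. The ratio differed little between the media, although its libraries did not overlap, while the Eln level was 3.05-fold lower in GS_diff2 (log2 -1.61 ± 0.066, adjusted p = 3.45e-19).

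Summed per kilobase, the members were at 951.5 ± 10.5 CPM in RCF and 1207 ± 14.4 in GS, then 1257 ± 18.9 in GS_diff1 and 1121 ± 11.9 in GS_diff2. Lox was the largest part of the sum in all 4 groups. Lox took 27.05 ± 0.309% of the sum in RCF, with 37.5 ± 0.233% in GS, 44.3 ± 1.15% in GS_diff1 and 56.8 ± 0.369% in GS_diff2. Fibrillin-1 went from 22.8 ± 0.157% in RCF to 4.01 ± 0.0889% in GS_diff2. Elastin was 0.442 ± 0.0128% of the sum in RCF, with 4.92 ± 0.334% in GS, 1.23 ± 0.0934% in GS_diff1 and 0.453 ± 0.0247% in GS_diff2. Without Lox, the sum was 694 ± 8.67 CPM per kilobase in RCF, against 754 ± 7.49 in GS, 700 ± 8.04 in GS_diff1 and 484.5 ± 3.3 in GS_diff2 (SD, n = 3).

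**Figure D4:**
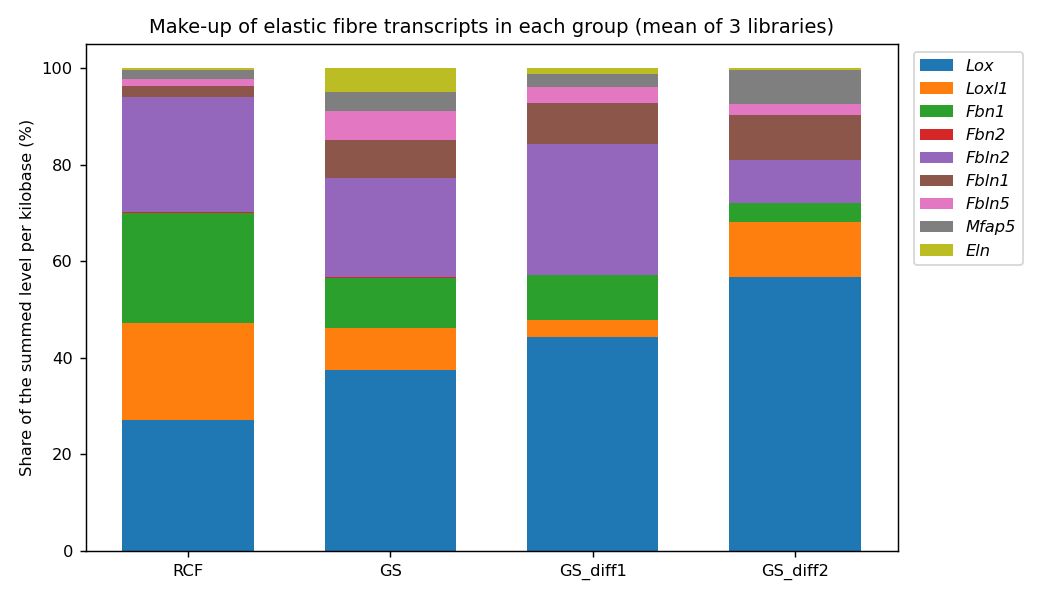
Share of each member in the summed level per kilobase (percent, mean of 3 libraries) in RCF, GS, GS_diff1 and GS_diff2. Lox grows from 27.05% in RCF to 56.8% in GS_diff2, while Fbn1 shrinks from 22.8% to 4.01%.

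Other genes of the pathway were read from lists of 62 names, of which 57 matched 1 row of the table and 52 were tested. In GS against RCF, 16 were higher and 34 lower, with a median log2 change of -0.41 where that of all tested genes was -0.03. Of all tested genes, 35% were higher and 36.3% lower in that comparison. In GS_diff1 against GS, 14 were higher and 28 lower (median -0.41), beside 32% and 32.3% of all tested genes. In GS_diff2 against GS, 17 were higher and 27 lower (median -0.16), beside 33.3% and 33.7%. In GS_diff2 against GS_diff1, 30 were higher and 11 lower (median 0.50), beside 32.1% and 31.5%. The same shares are the background of the counts of each list below, and nothing particular to a list is read from its counts. Without Mmp12, which had no count in either group of the last 3 comparisons, these medians were -0.44, -0.175 and 0.549.

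Among the microfibril and fibre assembly partners, 17 were tested, and 5 were higher and 12 lower in GS than in RCF. Against GS, 5 were higher and 11 lower in GS_diff1, and 8 were higher and 8 lower in GS_diff2. Between the media, 10 were higher and 3 lower in GS_diff2. Fibulin-4 (Efemp2), which links lysyl oxidase to tropoelastin, stood at 255 ± 2.97 CPM in RCF and 236 ± 6.22 in GS, then 157 ± 5.34 in GS_diff1 and 263 ± 1.7 in GS_diff2. Emilin1, a glycoprotein at the surface of the elastin core, went from 399 ± 6.09 CPM in RCF to 245 ± 10.5 in GS and 208 ± 13.8 in GS_diff1, and was at 392 ± 15.7 in GS_diff2. Mfap2, the other gene of the Mfap5 family, had at most 6 counts in a library and was not tested. Efemp1 stood at 5.06 ± 0.46 CPM in RCF and under 1 CPM on average in each other group.

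Latent TGF-beta binding proteins share the fibrillin domain plan and bind microfibrils. Per kilobase, Ltbp2 had a higher level than Ltbp1 and Ltbp4 in each group. Ltbp2 was at 1405 ± 23.2 CPM in RCF, against 3371 ± 92.7 in GS, 1587 ± 40.1 in GS_diff1 and 4300 ± 25.2 in GS_diff2. It rose 2.4-fold in GS (adjusted p = 7.41e-28), fell 2.12-fold in GS_diff1 (adjusted p = 6.65e-26) and was 2.71-fold higher in GS_diff2 than in GS_diff1 (adjusted p = 6.53e-29). Ltbp1 was at 257 ± 7.05 CPM in GS and 934 ± 14.9 in GS_diff2, 3.64-fold higher (adjusted p = 5.51e-30). Ltbp4, which binds fibulin-5, was 1.83-fold higher in GS_diff2 than in GS_diff1 (adjusted p = 3.48e-07).

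Of 7 tested genes for other cross-linking enzymes, their copper supply and propeptide removal, 3 were higher and 3 lower in GS than in RCF. The split was 4 higher and 1 lower in GS_diff1 against GS, 3 and 3 in GS_diff2 against GS, and 4 and 3 between the media. Loxl2 stood at 755 ± 11.9 CPM in RCF and 369 ± 19.3 in GS, then 561 ± 16.9 in GS_diff1 and 169 ± 3.42 in GS_diff2, and was 3.32-fold lower in GS_diff2 than in GS_diff1 (adjusted p = 3.77e-27). Loxl3 rose from 158 ± 3.02 CPM in GS to 713 ± 3.34 in GS_diff2, 4.52-fold (adjusted p = 2.05e-30). Loxl4 was 2.71-fold higher in GS than in RCF (adjusted p = 3.34e-16) at 32.4 ± 0.0294 CPM. Bmp1, the protease that activates pro-lysyl oxidase, fell 1.68-fold in GS (adjusted p = 1.7e-16) and rose 1.45-fold in GS_diff1 (adjusted p = 8.65e-13). The copper pump gene Atp7a, which supplies lysyl oxidases with their metal, did not pass the test in GS against RCF (63.1 ± 4.05 CPM in RCF, with 66.7 ± 5.94 in GS, adjusted p = 0.26). At 76.2 ± 1.11 CPM in GS_diff2 it was called higher than in RCF (1.207-fold, adjusted p = 0.000267) and GS_diff1 (1.225-fold, adjusted p = 0.000151). It was also called higher there than in GS (1.143-fold, adjusted p = 0.00746), but not without GS replicate 1 (edgeR adjusted p = 0.0882).

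Of 7 tested proteases that can degrade elastin, 1 was higher and 6 lower in GS than in RCF, where 35% of all tested genes were higher and 36.3% lower. The lower ones include Mmp12 and Ctss, which passed the filter on low counts only through RCF (146 to 163 and 19 to 27 counts per library). In each other library Mmp12 had 0 and Ctss at most 7 counts, so nothing is read from their place in this count. Against GS, 1 was higher and 5 lower in GS_diff1, and 1 was higher and 4 lower in GS_diff2. Mmp14, a membrane-bound protease that activates pro-Mmp2, fell from 3044 ± 17.2 CPM in RCF to 740 ± 25.2 in GS (4.12-fold, adjusted p = 1.28e-29), and stood at 262 ± 13.7 in GS_diff1 and 500 ± 7.41 in GS_diff2. The gelatinase Mmp2, at 2210 ± 27.2 CPM in GS, was the member of the list that rose there (1.32-fold over RCF, adjusted p = 1.58e-15), and it fell 4.79-fold in GS_diff1 (adjusted p = 1.61e-33). Cathepsin K, encoded by Ctsk, went from 55.6 ± 1.14 CPM in GS to 22.8 ± 3.79 in GS_diff1 (2.44-fold lower, adjusted p = 2.55e-14). In GS_diff2 against GS_diff1, 6 of the 7 proteases were higher and 0 lower, beside 32.1% of all tested genes called higher, and the other one, Mmp12, had no count in either group. Of these 6 calls, that of Ctss, with at most 1 count in a GS_diff1 library, was lost without any of 4 single libraries (edgeR adjusted p = 0.104 without GS_diff1 replicate 1, 0.101 without GS_diff1 replicate 2, 0.154 without GS_diff2 replicate 1 and 0.078 without GS_diff2 replicate 3). The call of Mmp9, with 3 to 13 counts in a GS_diff1 library, was lost without GS_diff1 replicate 2 (edgeR adjusted p = 0.157) and in a fit of the 6 libraries of both media alone (0.0644). The lower call of Ctss in GS_diff1 against GS was also lost without GS replicate 1 (0.116), GS_diff1 replicate 1 (0.0895) or GS_diff1 replicate 2 (0.0867).

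Macrophage elastase, Mmp12, stood at 7.14 ± 0.315 CPM in RCF and had 0 counts in all 9 other libraries. Against a floor of 3 counts per library it was at least 42.5-fold lower in GS, 45.8-fold lower in GS_diff1 and 48.3-fold lower in GS_diff2 than in RCF. The gelatinase Mmp9 was likewise at 7.11 ± 0.446 CPM in RCF and at 0.0732 ± 0.0899 CPM in GS (adjusted p = 1.01e-12). Of 8 leukocyte markers, 6 reached 1 CPM in RCF, with 1 in GS, 3 in GS_diff1 and 2 in GS_diff2, and their sum was 103 to 110 CPM in RCF, with 23.1 to 26.9 in GS, 16.5 to 17.5 in GS_diff1 and 32.2 to 34 in GS_diff2. Cd14 made up most of the sum in the 3 GS-derived groups, where its mean was 23.2 CPM (GS), 14.1 CPM (GS_diff1) and 29.4 CPM (GS_diff2) beside 17.3 CPM in RCF. Adgre1 was at 14.3 CPM in RCF and at 0 in those groups, and Lyz2 was at 55.8 CPM in RCF, 0.348 in GS and 0 in both media. C1qa and C1qb, also at 0 there, were at only 0.242 and 0.0282 CPM in RCF. The part of leukocytes in the RCF levels of Mmp12 and Mmp9 was not tested.

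Among receptors of elastin fragments and integrins that bind the RGD motif of fibrillins and fibulin-5, 5 were higher and 7 lower of 12 tested in GS against RCF. The split was 1 and 6 in GS_diff1 against GS, 4 and 6 in GS_diff2 against GS, and 5 and 2 between the media. Integrin alpha-v, encoded by Itgav, had 258 ± 3.37 CPM in RCF and 170 ± 8.76 in GS, 1.52-fold lower (adjusted p = 9.06e-15). Of its beta partners, Itgb3 fell 4.43-fold in GS (adjusted p = 2.82e-13) and a further 5.39-fold from GS to GS_diff2 (adjusted p = 1.21e-12). Itgb5 fell 2.02-fold in GS (adjusted p = 3.25e-22), and was 1.99-fold higher in GS_diff2 than in GS (adjusted p = 8.52e-22).

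TGF-beta is held on microfibrils in latent form and is a known inducer of elastin and Lox in fibroblasts. Of its ligands, receptors and mediators, 2 were higher and 6 lower of 9 tested in GS against RCF, with 3 and 5 in GS_diff1 against GS, 1 and 6 in GS_diff2 against GS, and 5 and 3 between the media. Tgfb3 was at 283 ± 6.62 CPM in RCF, against 64.2 ± 2.05 in GS, 130 ± 3.4 in GS_diff1 and 24.9 ± 1.43 in GS_diff2, with a 4.4-fold fall from RCF to GS (adjusted p = 1.41e-27). Tgfb2 stood at 189 ± 4.32 CPM in RCF and 133 ± 4.01 in GS, then 245 ± 18.2 in GS_diff1 and 26.6 ± 2.19 in GS_diff2. Between the media it was 9.24-fold lower in GS_diff2 (adjusted p = 2.42e-24). Tgfb1 fell 1.26-fold in GS (adjusted p = 1.14e-06) and 1.67-fold in GS_diff1 against GS (adjusted p = 2.64e-12).

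**Figure D5:**
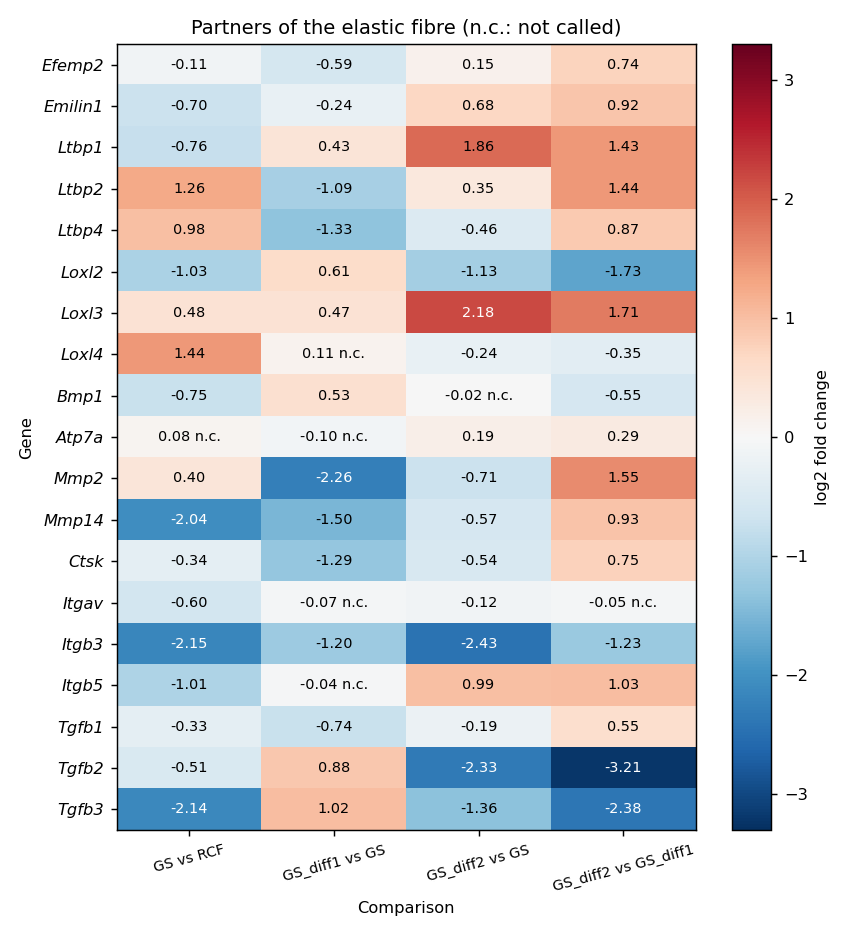
Log2 fold changes of 19 partner genes (rows) in the 4 main comparisons (columns), coloured from blue (lower) to red (higher), with n.c. where a gene was not called. Tgfb2 has the strongest colour, at -3.21 in GS_diff2 against GS_diff1, and Loxl3 and Ltbp1 stand out as higher in GS_diff2 against GS (2.18 and 1.86).

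The genes whose group means lay closest to the pattern of Eln were found over the 4 groups, among 12891 tested genes with a mean of at least 1 CPM. Likeness was the root mean square difference of log2 CPM after centring each gene, so that 0 is an identical pattern. The nearest were RGD1309651 (0.0682), RGD1566029 (0.187), Chchd10 (0.226), Osr1 (0.313) and Ggt1 (0.397). Osr1, a zinc finger transcription factor gene, stood at 23.5 ± 1.33 CPM in RCF, against 268 ± 5.24 in GS, 97.9 ± 3.4 in GS_diff1 and 41.9 ± 1.08 in GS_diff2. Chchd10 varied widely within GS (23.9 ± 29.5 CPM), and RGD1309651, RGD1566029 and Ggt1 stayed below 9 CPM in every group mean. Among the elastic fibre genes, Fbln5 was nearest to Eln, at rank 49 (0.698), followed by Fbn2 at rank 50 (0.701). The other members were between rank 1721 (Fbln1) and rank 11404 (Loxl1). Means of 4 groups leave many genes close by such a measure, and it carries no test.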

How the data were processed

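RNA was measured by RNA-seq in 12 libraries (RNeasy extraction and the Ovation RNA-seq v2 kit, per the labels). Raw read counts per gene were deposited by the authors, with coordinates on Rnor_6.0 and a gene length in bases for each of 32545 genes, per the file headers. Bowtie 0.12.2 and the builds Rnor_6.0 and mm8 are named per the submitters' processing notes, without roles. How reads were counted, and with which strand setting, is not given in the sources used here, so reads of overlapping genes could be shared.

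From the counts, genes with low values were removed (filterByExpr), leaving 14399. Libraries were scaled by TMM and tested with edgeR 4.0.16 (limma 3.58.1, R 4.3.3) by the quasi-likelihood test in 1 fit with a term per group (8 residual degrees of freedom, 2-sided, Benjamini-Hochberg over all tested genes, threshold 0.05). The coefficient of biological variation was 9.72%. Levels between genes were compared as CPM per kilobase of the deposited length. Replicates of a group differed by more than sampling noise (chi-square per degree of freedom 4.44 to 7.57). On simulated data for 14029 genes in the comparison of GS with RCF, 91.3% of 196 genes changed 2-fold were called and 4.28% of calls were false. The simulation gave all genes a common spread and left all other genes equal between groups. In the real comparison 71.3% of tested genes were called, so these rates are not those of the real calls. Members and lists were chosen with earlier results of these data known. All members are named; partner genes with values come from a list of 25 names, some of which are not reported here, and the genes most like Eln are the nearest 5. Promoter sequences are from RefSeq (GRCr8), which held 6 of the 10 members. Alternatives were DESeq2 1.42.0, library totals, no filter, 6 libraries only, a replicate block, and leaving out each library. Floors of 3 counts cover counting error only, while the SE and SD given also hold the spread between replicates.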

Additional observations from a re-analysis of the deposited data

Results flagged for a closer look

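For 3 elastic fibre genes GS_diff1 and GS_diff2 differed from GS in opposite directions. A gene was listed only where the direct comparison of GS_diff2 with GS_diff1 was called as well. That comparison used edgeR's quasi-likelihood test (3 libraries a group, all libraries apart). Its adjusted p was thus part of the rule and is no separate test of the listed genes. Fbln2 was higher in GS_diff1 (log2 0.45) and lower in GS_diff2 (log2 -1.315), a difference of log2 -1.767 (adjusted p = 2.8e-30). Mfap5 was lower in GS_diff1 (log2 -0.48) and higher in GS_diff2 (log2 0.74), a difference of log2 1.219 (adjusted p = 3.17e-16). Loxl1 was lower in GS_diff1 (log2 -1.19) and higher in GS_diff2 (log2 0.28), a difference of log2 1.476 (adjusted p = 1e-24).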

How the results depend on the processing

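The number of elastic fibre genes called stayed within 1.5 times its value in each of the 6 comparisons under all 11 alternatives, and no fold change of a member reversed. Over those alternatives, 9839 to 10678 of all tested genes were called in GS against RCF, 8715 to 9320 in GS_diff1 against GS, 9112 to 9819 in GS_diff2 against GS and 8631 to 9243 in GS_diff2 against GS_diff1. Among the members, the calls lost were that of Fbln2 in GS against RCF and of Fbn1 in GS_diff1 against GS, as given with those genes. Of the partner genes' fold changes under the alternatives, 1556 stayed called or stayed not called. Calls were lost by 16 (of Ctss, Mmp9, Loxl4, Itgav, Tgfb1, Atp7a and Ltbp4) and gained by 4 (of Loxl4, Itgav, Atp7a and Efemp1). With a call in either fit, 0 reversed. Some that were called in neither fit changed sign, such as Bmp1 in GS_diff2 against GS (log2 -0.0202, and up to 0.0645 under an alternative). Library totals moved the median of all genes by less than 0.1 on the log2 scale. Same-numbered libraries did not deviate together (correlations -0.045 to 0.0759 over 18 pairs, against -0.0753 to 0.0462 for other numbers). With replicate number as a block, 9, 9, 9 and 8 members were called in the 4 main comparisons, as without it, and 10166, 9135, 9538 and 9054 of all tested genes. Fbn2 in GS_diff2 rests on 3 to 21 counts per library, which limits its folds: without GS_diff2 replicate 2 it was log2 -3.86 against GS, -2.71 against GS_diff1 and -0.85 against RCF.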
